A study of Rattus norvegicus with 16 samples.

Results

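The genes described here are 10 widely used markers of macrophages and other leukocytes, followed in RNA from isolated rat glomeruli. They were chosen by name (C1qa, C1qb, C1qc, Cd68, Cd163, Csf1r, Aif1, Tyrobp, Ptprc and Mrc1), with earlier results of these data known, and 9 of them were found among the 13222 genes measured. Cd163 was not analysed here. Poly(A) RNA was sequenced from glomeruli of 16 male Wistar rats on day 11, with 4 rats in each of 4 groups. The control rats are labelled healthy. The other 12 rats had received puromycin aminonucleoside (PAN) intravenously, a toxin that injures podocytes and leads to nephrotic syndrome. Of these, the PAN group is the injury model, the pioglitazone group received the PPARγ agonist pioglitazone, and the GQ-16 group received the PPARγ ligand GQ-16. The labels describe daily gavage with either drug or a sham vehicle. They give no dose, and do not say whether control rats were gavaged. Glomeruli were sieved from kidney and not sorted by cell type, so the RNA comes from all cells that stay with the glomerulus. In such bulk RNA, more cells of a type and more RNA per cell cannot be told apart.

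Resident and recruited macrophages of the kidney clear immune complexes, dying cells and debris, and their number and state change in most forms of glomerular injury. Their survival depends on CSF1R, the receptor for CSF1 and IL-34, and many of their activating receptors signal through the adaptor DAP12, the product of Tyrobp. Macrophages are also a major source of C1q, the recognition molecule of the classical complement pathway, whose A, B and C chains are encoded by C1qa, C1qb and C1qc. CD68 is a lysosomal glycoprotein, AIF1 (also called IBA1) an actin-bundling protein of activated macrophages, MRC1 (CD206) an endocytic mannose receptor, and PTPRC (CD45) the tyrosine phosphatase carried by nearly all leukocytes.

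The promoters of 4 members are shown because 3 of these genes rose in PAN rats while the last, Ptprc, did not pass the test. The 3 C1q genes lie next to each other on chromosome 5, in the order C1qb, C1qc, C1qa in the RefSeq annotation. Each sequence is the 250 bases before the annotated start, 5′ to 3′ on the gene's own strand, from RefSeq (GRCr8). Capitals mark GAGGAA or its reverse complement TTCCTC, the core of sites bound by PU.1, a transcription factor of myeloid cells. C1qa lies on the minus strand (chr5:154419934-154420183), as do C1qb (chr5:154407828-154408077) and Ptprc (chr13:52259747-52259996), and Mrc1 lies on the plus strand (chr17:82157475-82157724).
C1qa: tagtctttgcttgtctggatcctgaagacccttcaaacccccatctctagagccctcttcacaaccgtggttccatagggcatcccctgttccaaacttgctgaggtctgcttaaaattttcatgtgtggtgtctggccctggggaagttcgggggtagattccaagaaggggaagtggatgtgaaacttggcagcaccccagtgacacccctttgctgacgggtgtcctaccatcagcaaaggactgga
C1qb: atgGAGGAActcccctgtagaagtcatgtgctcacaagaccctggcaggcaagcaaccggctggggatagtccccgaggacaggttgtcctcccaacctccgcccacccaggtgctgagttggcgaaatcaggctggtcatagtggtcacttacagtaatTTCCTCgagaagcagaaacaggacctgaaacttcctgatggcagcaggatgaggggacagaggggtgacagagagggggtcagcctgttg
Mrc1: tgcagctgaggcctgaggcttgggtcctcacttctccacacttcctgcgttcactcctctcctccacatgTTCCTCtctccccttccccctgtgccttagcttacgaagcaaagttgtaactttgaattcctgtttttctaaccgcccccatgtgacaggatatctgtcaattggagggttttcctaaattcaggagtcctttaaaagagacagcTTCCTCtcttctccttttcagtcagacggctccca
Ptprc: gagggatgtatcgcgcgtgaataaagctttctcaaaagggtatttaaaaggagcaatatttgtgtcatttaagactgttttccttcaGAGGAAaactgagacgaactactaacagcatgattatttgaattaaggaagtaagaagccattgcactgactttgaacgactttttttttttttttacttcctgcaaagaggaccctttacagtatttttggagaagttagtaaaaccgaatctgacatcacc
The motif was searched on both strands of the 300 bases that also include 50 after the start. RefSeq promoters were found for 6 of the 9 members, and 5 of them held at least 1 match: 2 each in C1qb, Mrc1, Cd68 and Csf1r and 1 in Ptprc. C1qa held none. Of all 33469 promoters of that length, 27.6% held a match. A match describes the letters only.

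Levels are given as CPM, that is, reads per 1000000 reads in the listed genes. Library totals ran from 13351137 to 21977663 reads, and no member had fewer than 90 reads in any library. The share of reads from 21 mitochondrial genes was 26.3% ± 11.8 in control and 9.24% ± 2.20 in PAN rats (SD, n = 4), with no overlap between these groups. The pioglitazone group had 14.3% ± 4.57 and the GQ-16 group 16.4% ± 11.2 (SD, n = 4). CPM values share a fixed total, and over all genes the median log2 difference of PAN from control was 0.28 with the deposited scaling and -0.003 with median-ratio scaling. The members' changes against control, and the counts of called genes and any medians of other lists between PAN and control, are therefore given under both scalings. All 8 podocyte markers examined were measured, as were all 8 proximal tubule markers, whose summed level ran from 2948 to 11536 CPM over the PAN rats. A single library stood apart for the genes described here. PAN rat 1 had a summed level of the 9 members of 786 CPM, against 267 to 366 CPM in the other 3 PAN rats. It held 1.71-fold (Ptprc) to 3.30-fold (C1qb) the mean of those 3 rats for each member. Its mitochondrial share was the lowest of the PAN rats, at 5.98%. Its summed fibroblast markers, mostly Col1a1, reached 2556 CPM, against 107 to 290 CPM in the other PAN rats. The members' changes against PAN or control that rest on PAN rat 1, and the counts of other genes called between PAN and control, are given with and without it. Rat numbers are names without any order or pairing. The sample titles carry a number of 25 or higher for 3 PAN rats, 0 control rats, 1 pioglitazone rat and 1 GQ-16 rat, and what that number marks is not stated.

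The comparison of PAN with control asks what the injury did. The genes of the C1q chains, the CSF1 receptor, DAP12, CD68, AIF1 and the mannose receptor were higher in PAN rats by 2.19-fold to 3.79-fold in mean CPM (1.63-fold to 2.5-fold without PAN rat 1), while the gene of the common leukocyte antigen CD45 was not called. With limma, at a Benjamini-Hochberg adjusted p under 0.05 over all genes, 8 of the 9 members rose and 0 fell, where 21.7% of all genes were called higher and 0.522% lower. The median log2 change of the 9 members was 1.07. After median-ratio scaling the median was 0.78 and 1 member, Mrc1, was called, against 7.12% of all genes called higher. Without PAN rat 1 the members called were Mrc1 and Csf1r, against 7.77% of all genes. The calls also rest on control rats. Without control rat 2, or without control rat 3, Mrc1 was the 1 member called, where 843 and 821 of all 13222 genes were called higher. With the title number as a covariate, or with title numbers of 15 or lower alone, 0 members were called, the title number being 25 or higher in 3 PAN rats and no control rat. The background is high in this comparison as deposited. A log2 change above 0 was found for all 9 members and 83.3% of all genes as deposited, and for 8 members and 49.5% of all genes after median-ratio scaling.

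**Figure D1:**
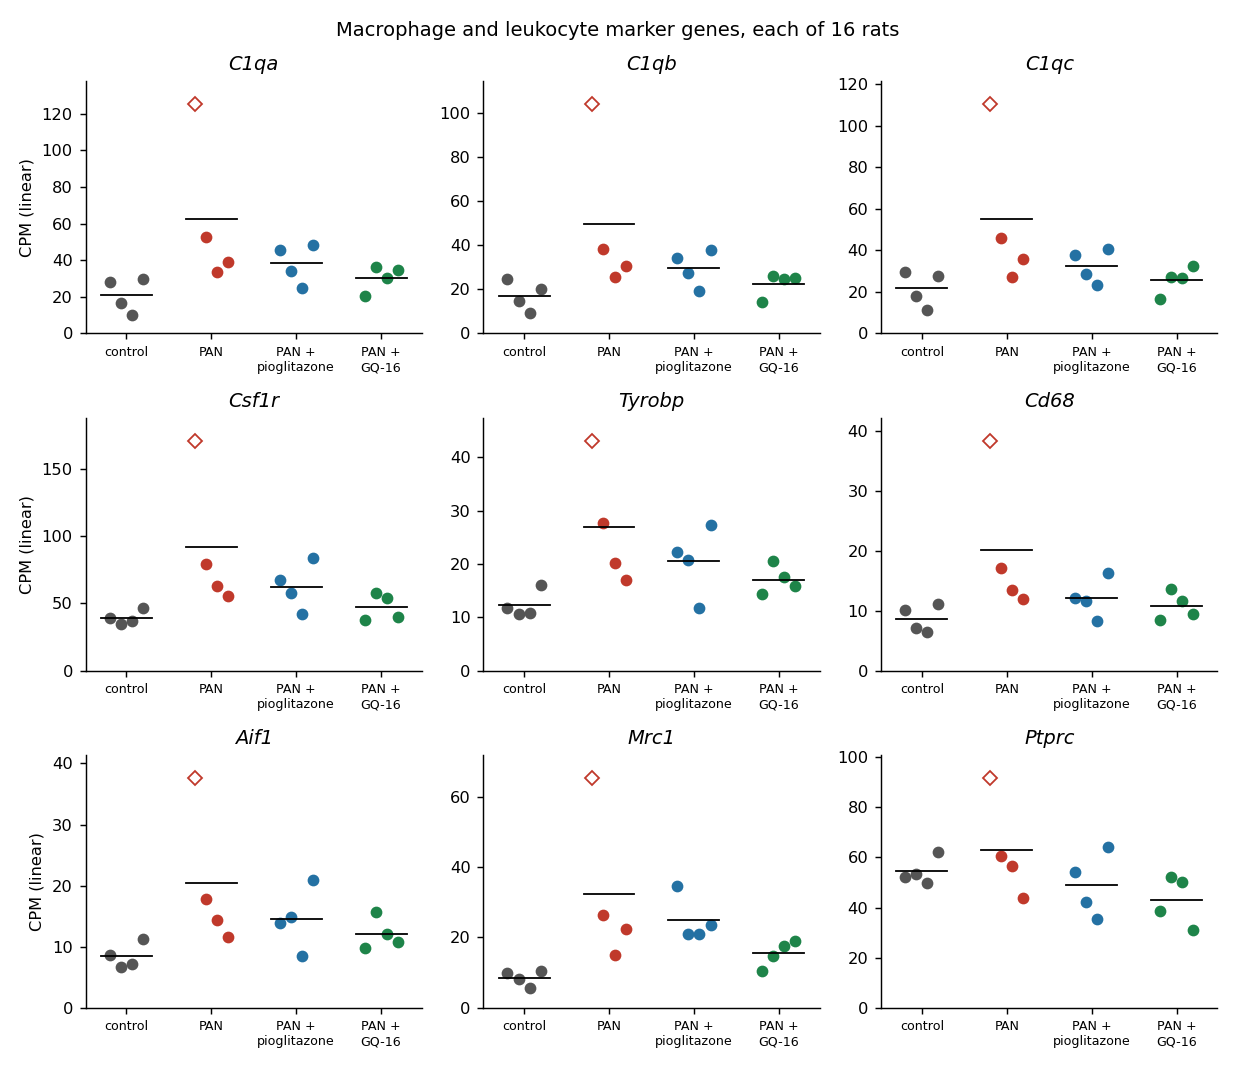
Level of each marker gene in each of 16 rats, in CPM on a linear axis that starts at 0, with a panel for each gene and the 4 groups side by side. Points are rats, black lines are group means, and the open diamond is PAN rat 1, which lies above every other rat in all 9 panels.

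Mrc1 (ENSRNOG00000018251), the mannose receptor gene, had the largest change. It measured 9.83, 8.14, 5.72 and 10.4 CPM in control rats 1 to 4 and 65.2, 26.4, 14.96 and 22.4 CPM in PAN rats 1 to 4. Every PAN rat was above every control rat, and PAN rat 1 was the highest by far. The mean rose from 8.51 ± 2.08 to 32.3 ± 22.5 CPM (SD, n = 4), a log2 change of 1.62 on the log2(CPM + 1) scale (SE 0.33, adjusted limma p 0.00486). With median-ratio scaling the log2 change was 1.34 (adjusted limma p 0.0199), and without PAN rat 1 it was 1.22 (adjusted limma p 0.00819). Mrc1 was the 1 member called under both, and it was not called with the title number as a covariate (log2 change 1.44, adjusted limma p 0.0781) or with title numbers of 15 or lower (log2 change 1.33, adjusted limma p 0.158).

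The 3 C1q chain genes, whose products assemble into a single molecule, all rose. C1qa (ENSRNOG00000012807) measured 28.0, 16.8, 9.96 and 29.6 CPM in the control rats and 125, 52.8, 33.6 and 39.1 CPM in the PAN rats. All PAN rats were above all control rats, with control rat 4 closest to PAN rat 3. The mean rose from 21.1 ± 9.35 to 62.7 ± 42.5 CPM (SD, n = 4), a log2 change of 1.44 (SE 0.38, adjusted limma p 0.0188). C1qb (ENSRNOG00000012749) measured 24.5, 14.9, 9.20 and 20.1 CPM in the control rats and 104, 38.4, 25.7 and 30.7 CPM in the PAN rats. Its groups also did not overlap, by a margin of little more than 1 CPM, and its log2 change was 1.33 (SE 0.37, adjusted limma p 0.0238). C1qc (ENSRNOG00000012804) measured 29.5, 18.01, 11.5 and 27.8 CPM in the control rats and 111, 46.1, 27.4 and 35.7 CPM in the PAN rats. Here PAN rat 3 lay below control rats 1 and 4, and the log2 change was 1.18 (SE 0.37, adjusted limma p 0.0351). None of the 3 chains was called after median-ratio scaling, with log2 changes of 1.15, 1.05 and 0.89 (adjusted limma p 0.0653, 0.0859 and 0.128). None was called without PAN rat 1 either, with log2 changes of 1.05, 0.91 and 0.78 (adjusted limma p 0.0625, 0.0729 and 0.114).

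The CSF1 receptor gene and the DAP12 gene both rose, and Csf1r varied little among the control rats (39.2 ± 5.03 CPM, SD, n = 4). Csf1r (ENSRNOG00000018414) measured 39.0, 34.5, 37.0 and 46.2 CPM in the control rats and 171, 79.5, 63.1 and 55.1 CPM in the PAN rats. Its groups did not overlap, and its log2 change was 1.07 (SE 0.29, adjusted limma p 0.0192). Without PAN rat 1 Csf1r remained just under the threshold, with a log2 change of 0.73 (adjusted limma p 0.0499). Tyrobp (ENSRNOG00000020845) measured 11.7, 10.6, 10.7 and 16.04 CPM in the control rats and 43.0, 27.6, 20.2 and 16.9 CPM in the PAN rats. PAN rat 4 was close to control rat 4, the highest of its group, and the log2 change was 1.005 (SE 0.26, adjusted limma p 0.0183). After median-ratio scaling the log2 changes were 0.77 for Csf1r and 0.72 for Tyrobp, and neither was called (adjusted limma p 0.108 and 0.103). Without PAN rat 1 Tyrobp had a log2 change of 0.76 and was not called (adjusted limma p 0.0655).

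The lysosomal marker gene Cd68 and the cytoskeletal marker gene Aif1 rose too. Cd68 (ENSRNOG00000037563) measured 10.1, 7.09, 6.42 and 11.1 CPM in the control rats and 38.3, 17.1, 13.5 and 11.9 CPM in the PAN rats. Aif1 (ENSRNOG00000000853) measured 8.68, 6.64, 7.18 and 11.3 CPM in the control rats and 37.6, 17.8, 14.4 and 11.6 CPM in the PAN rats. For each of these genes PAN rat 4 lay less than 1 CPM above control rat 4. The log2 change was 1.01 for Cd68 (SE 0.30, adjusted limma p 0.0274) and 1.06 for Aif1 (SE 0.30, adjusted limma p 0.0253). After median-ratio scaling these were 0.73 and 0.78, and neither was called (adjusted limma p 0.119 and 0.113). Without PAN rat 1 they were 0.66 and 0.73, again not called (adjusted limma p 0.0838 and 0.0828). The PAN and control rats did not overlap for 7 members as deposited, where 22.4% of all genes had every PAN rat above every control rat. After median-ratio scaling this held for 4 members (C1qa, Cd68, Csf1r and Mrc1), against 10.6% of all genes.

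Ptprc (ENSRNOG00000000655), the gene of CD45, was the 1 member not called. It measured 52.1, 53.5, 49.9 and 62.1 CPM in the control rats and 91.6, 60.6, 56.4 and 43.7 CPM in the PAN rats. The 2 groups overlapped, PAN rat 4 being below every control rat. The log2 change was 0.16 (SE 0.22, 95% interval -0.31 to 0.63, adjusted limma p 0.573). It was -0.13 after median-ratio scaling and -0.03 without PAN rat 1, so that its sign depended on both.

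**Figure D2:**
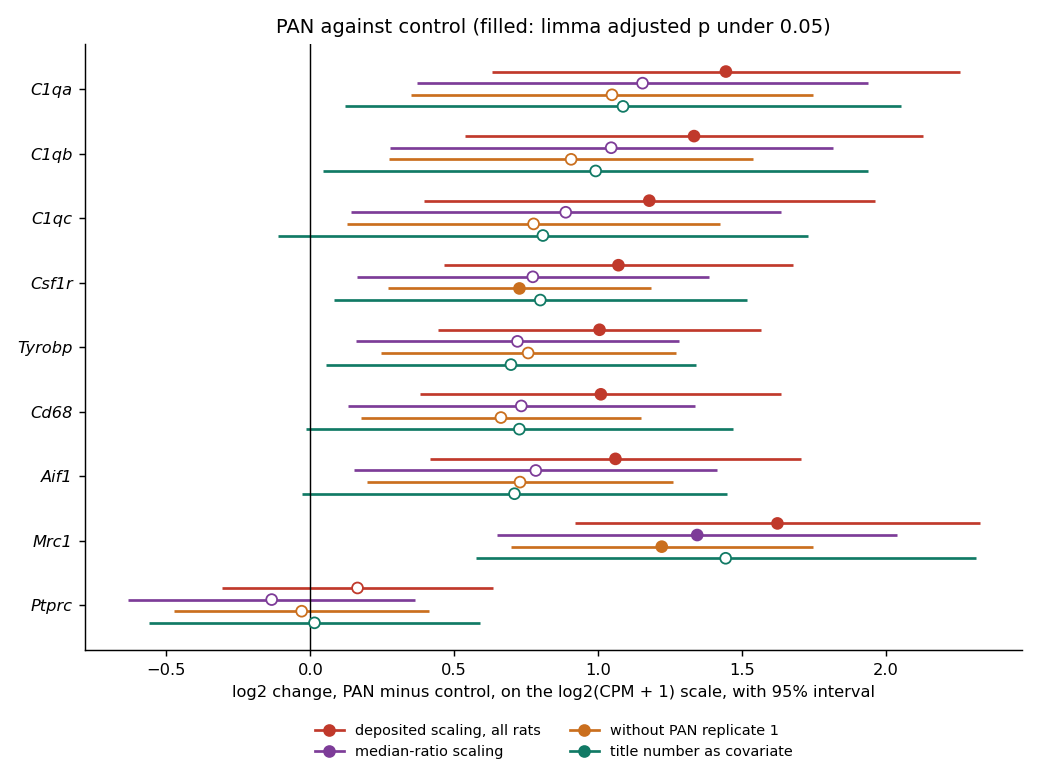
Log2 change of each marker between PAN and control rats with its 95% interval (x axis, log2(CPM + 1) scale) under 4 settings, each in its own colour. Filled points have an adjusted limma p under 0.05. All 9 points of the deposited scaling lie above 0, 8 of them filled, and Mrc1 alone is filled after median-ratio scaling.

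Setting each member against Ptprc in the same library removes any factor common to a library. This comparison was chosen after the values had been seen and is given with no test. On the log2 scale, the ratio to Ptprc was higher in PAN than in control rats by 1.57 for Mrc1, 1.33 for C1qa, 1.22 for C1qb, 1.05 for C1qc, 0.98 for Aif1, 0.92 for Cd68 and Csf1r and 0.90 for Tyrobp. For Csf1r the ratio was -0.48 ± 0.10 in control and 0.45 ± 0.32 in PAN rats (SD, n = 4). The PAN and control rats did not overlap in 6 of the 8 ratios, C1qb and C1qc being the exceptions, where 6.70% of all other genes had every PAN rat above every control rat in the ratio to Ptprc. PAN rat 1 had the highest ratio of the PAN rats for all 8 markers, so leaving it out cannot change which ratios overlap. Without it the differences lay between 0.76 (Cd68) and 1.35 (Mrc1). Of all other genes, 21.3% then had every remaining PAN rat above every control rat in the ratio to Ptprc.

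**Figure D3:**
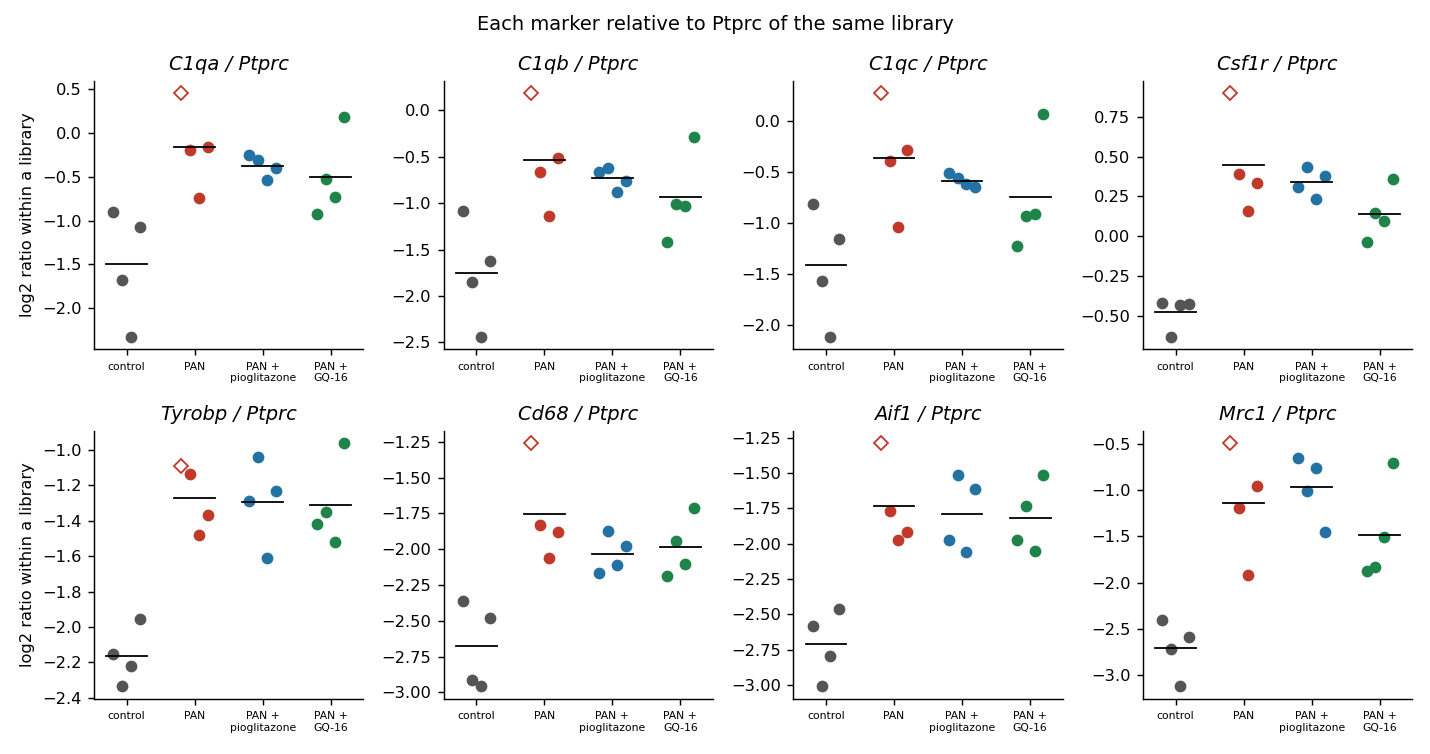
Log2 ratio of each of 8 markers to Ptprc within a library (y axis), for the 4 groups in each panel. Points are rats, black lines are group means, and the open diamond is PAN rat 1. The lowest rat of every panel is a control rat, and the Csf1r panel has the tightest control group, between -0.63 and -0.42.

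The members were then compared among themselves over all 16 rats. The 3 C1q genes kept nearly fixed proportions, with an SD of the log2 difference between 2 chains of 0.12 to 0.16 over the 16 rats. Pairs of other members were as tight, with SDs of 0.12 for Aif1 and Tyrobp, 0.15 for Cd68 and Csf1r and 0.16 for Cd68 and Aif1. The 8 pairs that include Ptprc had SDs from 0.41 to 0.82. Pairs of Mrc1 with Csf1r, Aif1, Tyrobp and Cd68 lay inside that range, at 0.48 to 0.51. Pearson's r between a member and the mean of all members' standardized levels was 0.69 for Ptprc, 0.88 for Mrc1 and 0.96 to 0.99 for the other 7. That mean includes the member itself, so part of each r is built in. Over the 15 rats without PAN rat 1 it was 0.45 for Ptprc, 0.81 for Mrc1 and 0.91 to 0.97 for the other 7, so that the value for Ptprc rests on that rat. These values are descriptions over 16 rats that share 4 group means and, in each library, the same total and mitochondrial share. After the group means were taken out, r over all 16 rats was 0.85 for Ptprc, 0.85 for Mrc1 and 0.93 to 0.99 for the rest. PAN rat 1 is included in these values, and they were not computed without it. The 8 other genes with levels most like the members' mean were Lrrc25, Pld4, Ctss, Cfp, Cybb, Slamf8, Fcer1g and Cyth4, with r from 0.97 to 0.99 over the 16 rats. Ctss encodes the lysosomal protease cathepsin S, Cybb the catalytic subunit of the phagocyte NADPH oxidase, Cfp the complement regulator properdin and Fcer1g the Fc receptor γ chain. Pld4 (ENSRNOG00000028566) measured 12.7 ± 3.56 CPM in the control group and 39.2 ± 28.4 CPM in the PAN group, then 20.8 ± 5.56 CPM after pioglitazone and 17.0 ± 4.41 CPM after GQ-16 (SD, n = 4).

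Within-library ratios were tested for 2 pairs of members, in 12 comparisons. The mean log2 level of the C1q chains relative to Tyrobp was 0.61 ± 0.53 in control and 0.92 ± 0.39 in PAN rats (SD, n = 4), a difference below the spread between rats (two-sided exact permutation p 0.4). The difference was 0.31 with all rats and 0.15 without PAN rat 1, and that of Mrc1 relative to Csf1r was 0.64 and 0.58. Mrc1 relative to Csf1r was -2.23 ± 0.32 in the control group and -1.59 ± 0.35 in the PAN group, then -1.31 ± 0.41 after pioglitazone and -1.62 ± 0.40 after GQ-16 (SD, n = 4). None of the 12 differences passed after adjustment. The pioglitazone and the GQ-16 rats all lay above all control rats in this ratio. The exact permutation p was 0.0286 for each, the smallest that 70 assignments of 8 rats allow, and 0.171 after Benjamini-Hochberg adjustment over the 12 comparisons. For PAN against control the exact permutation p was 0.0571.

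The comparison of pioglitazone with PAN asks what the drug did to injured glomeruli. Pioglitazone rats had lower mean levels than PAN rats for all 9 members, between 0.59-fold (C1qc) and 0.78-fold (Ptprc) of PAN, and none of these differences passed the test. Of all genes, 72.6% had a log2 change below 0. Log2 changes ran from -0.59 (Cd68) to -0.17 (Mrc1), with adjusted limma p from 0.916 to 0.931. No member reached an unadjusted p under 0.05, and 0 were called by limma with voom weights. Of all 13222 genes 0 were called lower by limma (0.00%), and 3.21% had an unadjusted p under 0.05 and a lower level. C1qa measured 45.6, 34.3, 24.6 and 48.5 CPM in the 4 pioglitazone rats, which overlapped the range of PAN rats 2 to 4. After median-ratio scaling the median log2 change of the 9 members was -0.36 instead of -0.45, and 0 had an unadjusted p under 0.05. Without PAN rat 1, the mean levels lay between 0.85-fold (Cd68) and 1.18-fold (Mrc1) those of PAN rats, and the log2 changes of the 9 members ran from -0.24 (Cd68) to 0.23 (Mrc1), 8 of them below 0, as for 66.4% of all genes. For C1qa the 95% interval was then -0.85 to 0.55.

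GQ-16 rats had lower mean levels than PAN rats for all 9 members as well, between 0.45-fold (C1qb) and 0.68-fold (Ptprc), where 79.3% of all genes had a log2 change below 0. By limma, 0 members were called lower (0.0151% of all genes, 2 in number), 7 of the 9 had an unadjusted p under 0.05, and 7.93% of all genes had such a p and a lower level. Log2 changes ran from -0.91 (C1qb) to -0.52 (Ptprc), with adjusted limma p from 0.447 to 0.643, and 0 members were called with voom weights. After median-ratio scaling 4 of the 9 had an unadjusted p under 0.05, and the median log2 change was -0.70 for the members and 0.006 for all genes. With the deposited scaling, the members at such a p numbered 1 without GQ-16 rat 1, 9 without GQ-16 rat 2 and 0 with the title number as a covariate. Csf1r measured 37.7, 57.6, 53.6 and 39.7 CPM in the 4 GQ-16 rats, against 55.1 CPM in the lowest PAN rat. GQ-16 rat 2 lay inside the PAN range and the other 3 below it, a log2 change of -0.83 (95% interval -1.43 to -0.22, adjusted limma p 0.447). Without PAN rat 1 the log2 changes of the 9 members ran from -0.49 (C1qc) to -0.25 (Aif1), all below 0 as for 76.7% of all genes, and Csf1r was the only member with an unadjusted p under 0.05. The mean levels then lay between 0.71-fold (C1qc) and 0.83-fold (Aif1) those of PAN rats. The median log2 change of the 9 members was -0.83 with all rats and -0.43 without PAN rat 1, beside -0.11 and -0.10 for all genes.

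The compounds were set against each other with the same day and route, the doses not being given in the labels. Every member had a log2 change below 0 for GQ-16 against pioglitazone, as 55.2% of all genes did, and none of these 9 differences was called by limma (0.00% of all genes were called lower, and 5.52% were lower at an unadjusted p under 0.05). Mrc1 came closest. It measured 34.6, 21.0, 21.0 and 23.4 CPM in the pioglitazone rats and 10.52, 14.6, 17.6 and 19.0 CPM in the GQ-16 rats. Every GQ-16 rat was below every pioglitazone rat, as for 1.94% of all genes, and the log2 change was -0.66 (95% interval -1.37 to 0.04, adjusted limma p 0.870). For Cd68 the 95% interval of the difference was -0.76 to 0.50 and for C1qa -1.12 to 0.51. All 9 intervals included 0.

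**Figure D4:**
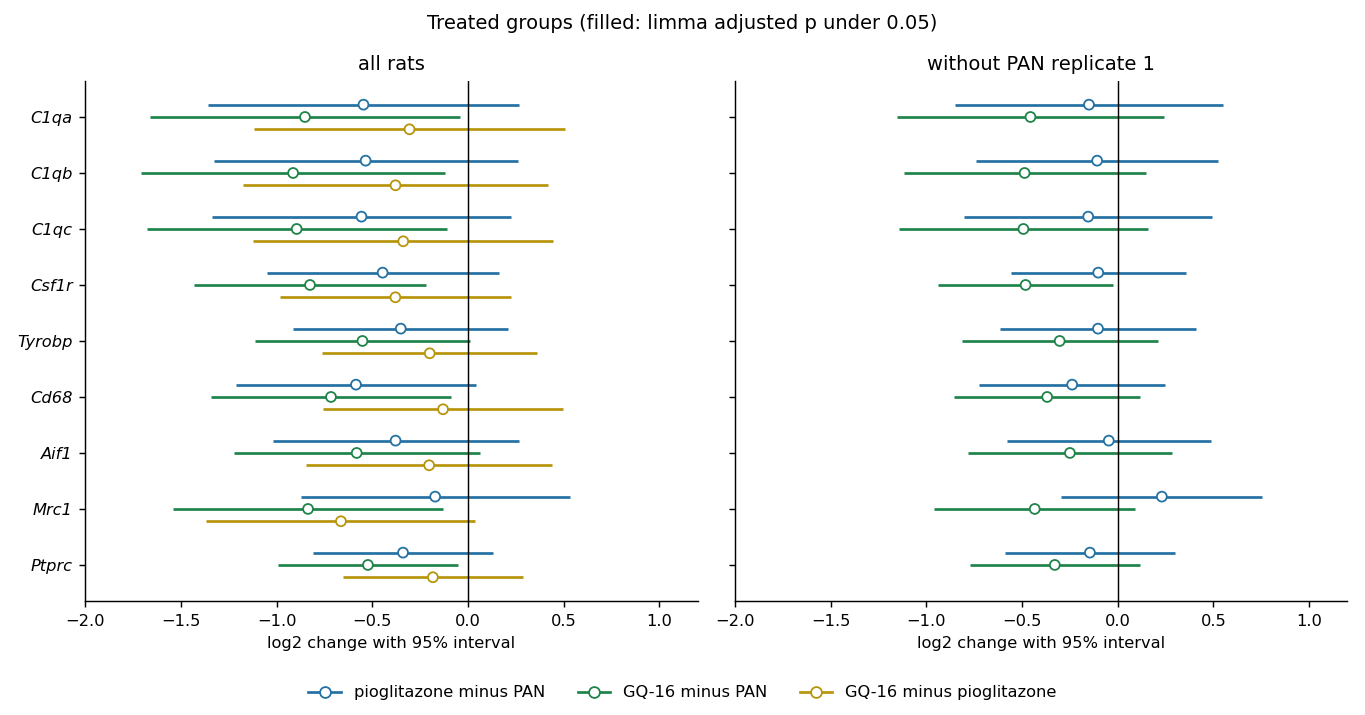
Log2 change of each marker (x axis, log2(CPM + 1) scale, 95% interval) for pioglitazone against PAN, GQ-16 against PAN and GQ-16 against pioglitazone, with all rats on the left and without PAN rat 1 on the right. No point is filled, that is, no adjusted limma p was under 0.05. The values against PAN lie closer to 0 without PAN rat 1, from -0.85 to -0.46 for C1qa with GQ-16, except that of Mrc1 with pioglitazone, which goes from -0.17 to 0.23.

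Levels in treated rats were also set against control, which shares its rats with the comparisons above. With pioglitazone, Mrc1 was the 1 member called (4.70% of all genes were called higher). Its mean was 25.03 ± 6.51 CPM (SD, n = 4) against 8.51 ± 2.08 in control, with no overlap (13.1% of all genes had every pioglitazone rat higher), a log2 change of 1.45 (SE 0.33, adjusted limma p 0.0244). It was not called after median-ratio scaling (log2 change 1.25, adjusted limma p 0.0516). Ptprc had a log2 change of -0.18 and the other 7 members of 0.42 (Cd68) to 0.90 (C1qa), with adjusted limma p of 0.134 or higher. After median-ratio scaling these were -0.39 for Ptprc and 0.23 (Cd68) to 0.69 (C1qa) for the other 7, with adjusted limma p of 0.295 or higher. With GQ-16 limma called 0 members (0.151% of all genes were called higher), 1 member was higher at an unadjusted p under 0.05 (21.9% of all genes), and 0 were called with voom weights. That member was Mrc1, at 15.4 ± 3.74 CPM (SD, n = 4) and a log2 change of 0.79 (adjusted limma p 0.174). The log2 changes of the other 8 members ran from -0.36 (Ptprc) to 0.59 (C1qa). After median-ratio scaling all 9 ran from -0.53 (Ptprc) to 0.63 (Mrc1), and 0 were called (adjusted limma p of 0.185 or higher). The order of the 4 group means was PAN, pioglitazone, GQ-16, control for every member except Ptprc, for which it was PAN, control, pioglitazone, GQ-16. For Ptprc control came before PAN after median-ratio scaling and without PAN rat 1, and for Mrc1 pioglitazone came before PAN without that rat. No neighbouring groups in either order differed at the threshold with all rats.

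Other genes of the same cells and pathways came from fixed lists, counted here without the members. The counts for PAN against control are to be read beside the 21.7% of all genes called higher as deposited, 7.12% after median-ratio scaling and 7.77% without PAN rat 1. The median log2 change of all genes was 0.28, -0.003 and 0.25 under these settings. Of the 17 measured genes around the CSF1 receptor and DAP12, 5 rose in PAN against control, 0 fell, and the median log2 change was 0.38, against 0.079 after median-ratio scaling and 0.29 without PAN rat 1. The ligand gene Il34 rose from 17.0 ± 4.57 to 32.2 ± 14.9 CPM (SD, n = 4), a log2 change of 0.82 (adjusted limma p 0.0312). Sirpa, an inhibitory receptor for CD47, rose by 1.90 (adjusted limma p 0.00956) and Pik3cd, a leukocyte PI3-kinase subunit, by 0.61 (adjusted limma p 0.0280), both on the log2 scale. After median-ratio scaling 1 of the 17, Sirpa, was called, and 1, again Sirpa, without PAN rat 1. Il34 and Pik3cd then had log2 changes of 0.54 and 0.31 after median-ratio scaling (adjusted limma p 0.117 and 0.237) and 0.55 and 0.40 without PAN rat 1 (adjusted limma p 0.103 and 0.0912). The share of these genes that was called is near that of all genes under each of these settings. Of the 15 measured partners and receptors of C1q, 4 rose and 0 fell, a share near that of all genes, with a median log2 change of 0.79, 0.56 after median-ratio scaling and 0.39 without PAN rat 1. C1r, the protease that C1q activates, rose from 29.8 ± 14.9 to 107 ± 56.3 CPM (SD, n = 4), a log2 change of 1.80 (adjusted limma p 0.00333). Serping1, the C1 inhibitor gene, rose by 1.57 (adjusted limma p 0.0165) and Lrp1, a scavenger receptor gene, by 1.29 (adjusted limma p 0.00326), both on the log2 scale. These 3 were called after median-ratio scaling too, with log2 changes of 1.505 for C1r, 1.28 for Serping1 and 0.99 for Lrp1, and 2 of the 15, C1r and Lrp1, without PAN rat 1 (adjusted limma p 0.0626 for Serping1).

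Of 39 other measured mononuclear phagocyte genes, 14 rose in PAN, 0 fell, and the median log2 change was 0.80. After median-ratio scaling 4 were called and the median was 0.51, and without PAN rat 1 these were 4 and 0.49. Siglec1, a sialic acid-binding adhesion receptor of macrophages, rose from 4.86 ± 2.71 to 22.5 ± 15.4 CPM (SD, n = 4), a log2 change of 1.95 (adjusted limma p 0.00551). Clec10a, a lectin receptor of macrophages and dendritic cells, rose by 1.38 (adjusted limma p 0.00691) and Axl, a receptor for the uptake of dying cells that other cell types also express, by 1.48 (adjusted limma p 0.00560), both on the log2 scale. The summed level of these 39 genes was 2239 to 3523 CPM in control and 2881 to 5944 CPM in PAN rats, and 3625 CPM was the highest value without PAN rat 1. Of 21 other pan-leukocyte genes 5 rose and 0 fell, with a median log2 change of 0.41 as deposited, 0.11 after median-ratio scaling and 0.20 without PAN rat 1. Arhgdib, Was and Cd44 led them, with log2 changes of 0.96, 0.79 and 0.90. After median-ratio scaling 1 of the 21, Arhgdib, was called (adjusted limma p 0.0546 for Was and 0.125 for Cd44), and 2, Arhgdib and Was, without PAN rat 1. As deposited the called share of this list is near that of all genes.

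Few markers of lymphocytes and granulocytes were measured. Of the 17 T cell genes 8 were measured, with a summed level of 50.2 to 62.2 CPM in control and 42.1 to 95.9 CPM in PAN rats, and limma called 0 of them (0 at an unadjusted p under 0.05). Of the 11 B cell genes 5 were measured, with a summed level of 23.4 to 35.1 CPM in control and 12.7 to 29.0 CPM in PAN rats. None of the 5 was called as deposited (2 at an unadjusted p under 0.05), and 2, Cd79a among them, were called lower after median-ratio scaling, against 1.51% of all genes. Of the 11 neutrophil genes 4 were measured and 0 were called (0 at an unadjusted p under 0.05), and Mmp9, which other cells also express, made up 95.9% of their sum. Limma called 0 genes of these 3 lists without PAN rat 1 (0 T cell, 1 B cell and 0 neutrophil genes at an unadjusted p under 0.05), and after median-ratio scaling 0 T cell and 0 neutrophil genes (1 and 0 at such a p). In PAN rat 1 the T cell sum was the highest of the 16 rats and the B cell sum was within the PAN range. Cd4 made up 37.3% of the T cell sum, and which cells its reads came from was not tested.

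**Figure D5:**
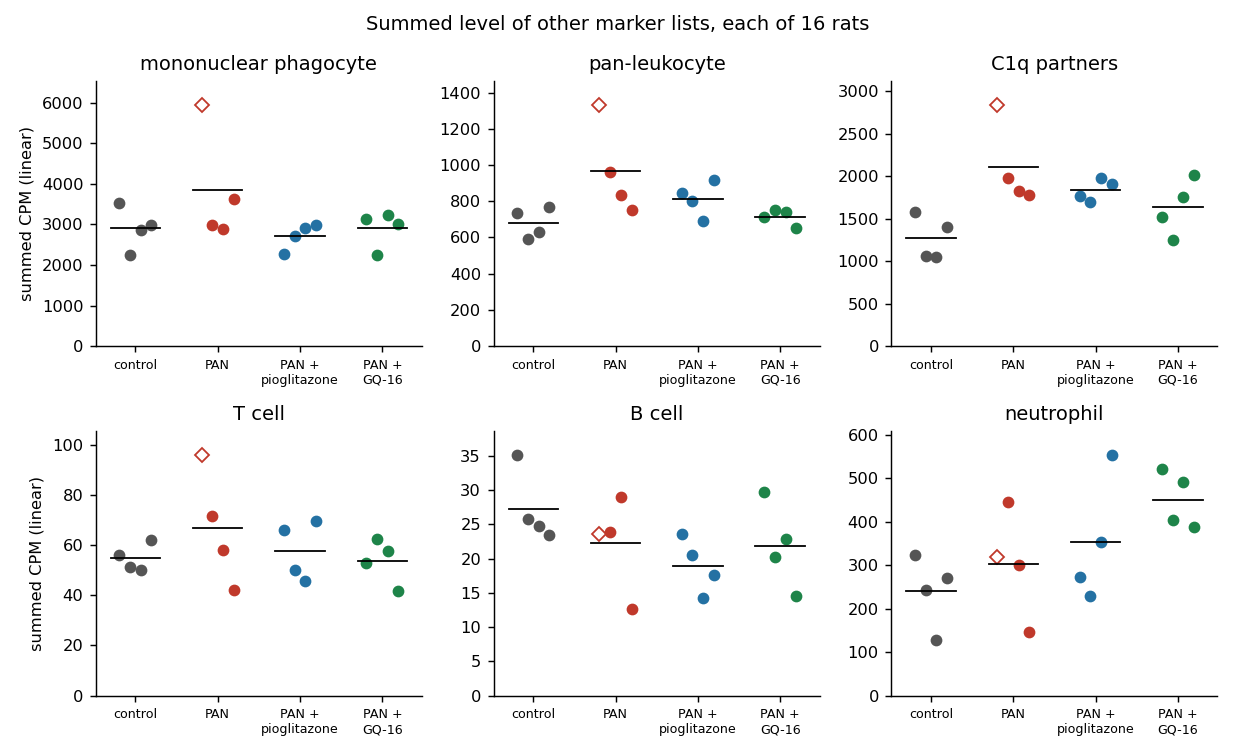
Summed CPM (y axis, linear, from 0) of 6 lists of other marker genes, without the 9 members, in each rat. Points are rats, black lines are group means, and the open diamond is PAN rat 1. That rat is highest for mononuclear phagocyte, pan-leukocyte, C1q partner and T cell genes, and lies inside the group's range for B cell and neutrophil genes. Calr, which most cells express, makes up 55.8% of the C1q partner sum and Lgmn, which tubule cells also express, 22.8% of the mononuclear phagocyte sum. Cd4 makes up 37.3% of the T cell sum.

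Markers of the other cells of the glomerulus and of the tubule were counted in the same comparison. Of 8 mesangium and smooth muscle genes 7 rose in PAN (6 after median-ratio scaling and 6 without PAN rat 1), with a summed level of 294 to 800 CPM in control and 1618 to 2705 CPM in PAN rats. Their median log2 change was 2.11, with 1.86 after median-ratio scaling and 1.88 without PAN rat 1. Of 8 podocyte genes 2 rose (1 under either alternative), a called share near that of all genes. All 8 had a log2 change above 0, with a median of 1.42, 1.12 after median-ratio scaling and 1.27 without PAN rat 1. At an unadjusted p under 0.05 there were 7, 4 and 4 of them under these settings. Their summed level was 2143 to 8622 CPM in control and 6744 to 10154 CPM in PAN rats. Of 8 measured glomerular endothelium genes 1, Plvap, rose under all 3 settings, and 2 had a log2 change above 0 as deposited, with a median of -0.20 as deposited and -0.50 after median-ratio scaling. After median-ratio scaling 1 had a log2 change above 0 and 6 had an unadjusted p under 0.05, against 1 at such a p as deposited. Of 8 proximal tubule genes 0 were called under any of the 3 (0 at an unadjusted p under 0.05). Of 7 distal nephron genes 3 fell (2 after median-ratio scaling and 0 without PAN rat 1), with a summed level of 903 to 1594 CPM in control and 491 to 1032 CPM in PAN rats. Of 3 measured fibroblast genes 1, Col1a1, rose under all 3 settings, and their summed level was 19.1 to 74.6 CPM in control. The part of these cell types, of the mitochondrial share and of the title numbers in the members' changes was not tested beyond the 2 fits given next. With the title number (25 or higher against 15 or lower) as a covariate, 0 members were called and the log2 changes ran from 0.01 (Ptprc) to 1.44 (Mrc1, adjusted limma p 0.0781). Among title numbers of 15 or lower, where PAN has a single rat and its spread is taken from the other groups, the log2 changes ran from -0.31 (Ptprc) to 1.33 (Mrc1), and 0 members were called.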

How the data were processed

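RNA from glomeruli of 16 rats was sequenced. Per the labels' protocols, libraries were poly(A)-selected and stranded and read as pairs. Per the submitters' processing notes, HISAT2, featureCounts (Subread) and limma were used with genome build Rnor_6.0, in roles and versions not given in the sources used here. The deposited values are log2 CPM. They have the form log2((count + 0.5) / (total + 1) × 1000000), from which whole reads were recovered for 100% of values (tolerance 0.1 read). All genes reach 2.04 CPM in 8 or more libraries, so the values show that low genes were removed before deposit.

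The labels give 4 rats in each of 4 groups and no litter, batch or pairing; p-values measure the spread between these rats. No 2 libraries of a group agreed within counting error (24 pairs). All 6 comparisons were fitted in limma 3.58.1 (R 4.3.3) on log2(CPM + 1), with 4 group means, a variance trend and Benjamini-Hochberg adjustment over 13222 genes, called at 0.05. This scale understates changes of low genes. The fit was tested on simulated data. Within-library ratios used two-sided exact permutation tests (scipy 1.17.1); ratios with Cd163 were planned and not computed. Alternatives were median-ratio scaling, a pseudocount of 0.1, a mean of at least 10 CPM, fits to the 2 groups compared, voom on the recovered reads with median-ratio scaling, title numbers as a covariate or limited to 15 or lower, and leaving out each rat.

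The members and all 16 gene lists were chosen with earlier results of these data known. Named list genes are the up to 3 with the smallest p among those called; similar genes are the 8 with the largest r. Cd79a and Pld4 were named after their values were seen. Some results are not reported here. Reads carry no molecular identifiers. RefSeq (GRCr8) gave promoters and gene order only.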

Additional observations from a re-analysis of the deposited data

Results flagged for a closer look

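In the GQ-16 group, rat 1 had a C1qb level of 3.849 log2 CPM, while the other 3 rats lay between 4.62 and 4.70. The gap to the nearest of them was 0.90 of the group's range, beyond Dixon's 95% critical value. Of 44 groups of 4 rats examined this was the 1 past that value, and chance gives about 1 in 20, or 2.2 groups. The same rat was the lowest of its group for 8 of the 9 members, all but Ptprc, and for the other 7 of these its gap did not pass.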

How the results depend on the processing

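No paired analysis was possible because the labels give no replicate number shared between groups. Of 9 members, 8 were called between PAN and control. The count was 1 after median-ratio scaling, 4 in a fit to those groups alone, 0 with title numbers of 15 or lower, 0 with the title number as covariate and 1 with voom. It ran from 1 to 8 with a rat left out: 1 without control rat 2 or 3, 2 without PAN rat 1 and 4 without PAN rat 2. The 1 member called between pioglitazone and control became 0 after median-ratio scaling and 0 with voom, and 0 to 1 with a rat left out (0 without control rat 2 or 3 or pioglitazone rat 1, 2 or 4). The cause was not tested.

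Ptprc between PAN and control turned from 0.16 to -0.13 after median-ratio scaling, -0.31 with title numbers of 15 or lower and -0.14 with voom, and ran from -0.03 to 0.32 with a rat left out. With title numbers of 15 or lower the log2 change against PAN turned positive for Aif1 (0.059), Tyrobp (0.051) and Mrc1 (0.14) with pioglitazone and for Aif1 (0.085), Tyrobp (0.032) and Ptprc (0.091) with GQ-16. The difference of GQ-16 from pioglitazone became 0.068 for Cd68, 0.027 for Aif1 and 0.098 for Ptprc. With a rat left out, Mrc1 between pioglitazone and PAN ran from -0.45 to 0.23 and Cd68 between GQ-16 and pioglitazone from -0.29 to 0.016. The C1q to Tyrobp ratio ran from -0.26 to 0.17 for GQ-16 and from -0.11 to 0.32 for pioglitazone against control, and the Mrc1 to Csf1r ratio from -0.22 to 0.083 for GQ-16 against PAN. None of these was past a threshold. Of 390 values of single members and ratios under alternatives that kept every rat or limited the title numbers, 342 kept direction and call, 36 lost the call and 12 turned. Of 528 with a rat left out, 489 kept both, 29 lost the call and 10 turned.

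With 4 rats a group the spread between rats, not depth, sets the precision: 3 reads correspond to 0.137 to 0.225 CPM, far below every member.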
